A study of Mus musculus with 24 samples.

Results

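The lysosome is the acidic compartment in which cells take apart proteins, lipids, glycans and worn-out organelles, and autophagy is the route that wraps cytoplasmic material in a membrane and brings it there. The transcripts described here belong to a set of 36 lysosome and autophagy genes. All 36 reached 0.5 CPM (counts scaled to a common library size) in 3 or more libraries. They were 36 of 13901 genes tested and of 39253 genes listed. The members were taken by symbol and fall into 5 lysosomal membrane proteins, 5 cathepsins, 8 glycan and lipid hydrolases with their activators, 4 subunits of the proton pump (V-ATPase), 6 genes of the autophagy receptor and ATG8 family, 4 genes of autophagosome formation and fusion, and 4 genes of TFEB control.

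RNA was sequenced from Neuro2A cells, a wild-type mouse neuroblastoma line, in 8 groups of 3 libraries, 24 in all. In 6 groups the cells had been transiently transfected with plasmids for an RNA-targeting CRISPR effector and its crRNA and were harvested 48 hr later. The effectors were RfxCas13d, its high-fidelity form HiFi-RfxCas13d, and DiCas7-11, each with a crRNA against mouse ataxin-2 (mATXN2) or with a non-targeting crRNA (NTG). The remaining groups were untransfected cells, the negative control, and a positive control that received an ataxin-2-directed antisense oligonucleotide (ASO). All groups therefore share 1 cell line, and in the 6 transfected groups every library carries an effector plasmid, so that NTG against untransfected sets transfection, effector and crRNA together against none of them. No group with a control oligonucleotide was analysed here, and the dose and delivery of the ASO are not given in the sources used here. The table's column names give both crRNA arms codes other than those of the sample labels. They were matched by effector and arm, and what the control cells received beyond the NTG label could not be settled. Groups are called by their labels.

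Most lysosomal enzymes are made in the endoplasmic reticulum, tagged with mannose-6-phosphate and delivered through endosomes to lysosomes, which the V-ATPase acidifies. The transcription factors TFEB and TFE3 switch on many of these genes through a short E-box-type promoter element (the CLEAR element, with CACGTG at its core) when the kinase complex mTORC1, docked on the lysosome by Rag GTPases, no longer holds them in the cytoplasm. Folliculin (Flcn) and its partner Fnip1 act on those Rag GTPases and so sit between nutrient state and TFEB.

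Library totals lay between 12665725 and 22504999 estimated counts, with a median of 16478419, and the 3 ASO libraries were the deepest, from 21874644 to 22504999. Of 21 neuronal and neuroblastoma markers 18 passed the filter, with a summed level of 3482 to 3506 CPM in ASO libraries and 3722 to 3772 CPM in untransfected ones. None of 10 macrophage and microglia markers passed, and their summed level was 0 to 0.493 CPM. Fibroblast markers summed to 15.6 to 15.9 CPM in untransfected and 10.4 to 14.0 CPM in all other libraries. The targeted transcript, Atxn2, was at 123 ± 1.78 CPM (SD, n = 3) in untransfected and 52.0 ± 2.77 CPM (n = 3) in ASO cells, a fall in every ASO library (log2 fold change -1.25, SE 0.039, edgeR adjusted p = 1.65e-19). With HiFi-RfxCas13d it was 119 ± 6.07 CPM with NTG and 101 ± 2.49 CPM with mATXN2 (log2 fold change -0.23, edgeR adjusted p = 0.00157), and with DiCas7-11 118 ± 2.70 and 103 ± 2.43 CPM (-0.20, edgeR adjusted p = 0.00557). With RfxCas13d it was 122 ± 2.64 and 114 ± 2.08 CPM (-0.10, edgeR adjusted p = 0.178), which missed the threshold of 0.05. In bulk RNA, fewer cells carrying a transcript and less of it per cell cannot be told apart.

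Lysosomal genes were strongly expressed in these neuroblasts before any treatment. Scaled by transcript length, the median member stood at 45.1 CPM per kb in untransfected cells against 10.7 CPM per kb over the 12296 tested genes with a known length, and 31 of 36 members lay above that median. The highest was Lamp1, the most abundant glycoprotein of the lysosomal membrane, at 297 ± 5.20 CPM per kb (SD, n = 3). Psap, which encodes the precursor of the saposins that present lipids to hydrolases, followed at 243 ± 2.83, and Sqstm1 (p62), the receptor that carries ubiquitinated cargo into autophagosomes, at 175 ± 2.86. These 3 levels were separated by far more than their spread.

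Ctsd, the main aspartic protease of lysosomes, stood at 149 ± 6.47 CPM per kb, the tetraspanin gene Cd63 at 132 ± 1.83 and Rab7, the GTPase that marks late endosomes, at 117 ± 2.56. At the other end lay Tfeb at 4.92 ± 0.450, Gla (alpha-galactosidase A) at 5.19 ± 0.484, Flcn at 6.20 ± 0.873, Ctsl (cathepsin L) at 6.73 ± 0.0737 and Neu1 (the lysosomal sialidase) at 7.64 ± 0.743 CPM per kb. The spread of Flcn overlapped those of Tfeb, Gla, Ctsl and Neu1, and those of Tfeb and Gla overlapped, so their order is not resolved. The other TFEB control genes also lay low in the order, with Tfe3 at 12.3 ± 0.911 and Fnip1 at 15.6 ± 0.591 CPM per kb.

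**Figure D1:**
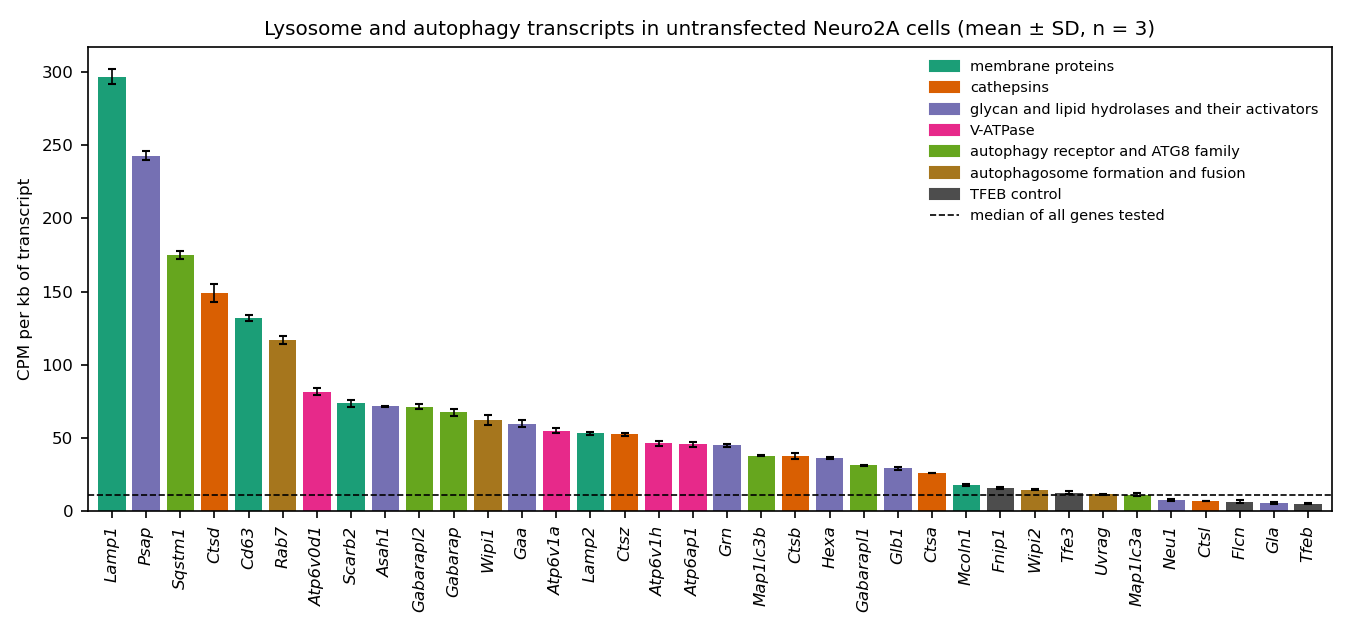
Level of each of the 36 members in untransfected cells in CPM per kb of transcript, ordered by level and coloured by role, as bars of the mean with the SD of 3 libraries. Lamp1 (mean 297) and Psap (243) stand highest and Tfeb (4.92) lowest, and the median of all tested genes (10.7) lies below 31 members.

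Because TFEB and TFE3 act through CACGTG, the promoter sequences of the members were read for these letters. RefSeq promoter windows, from 250 bases before to 50 bases after the transcription start (GRCm38.p6), existed for 32 of the 36 members, with none for Asah1, Atp6v1h, Ctsb and Map1lc3a. CACGTG, which reads the same on both strands, was present in 11 of the 38 windows of these members (28.9%) and in 7.15% of all 32851 promoters. The longer palindrome TCACGTGA was present in 6 of the 38 (15.8%) and in 0.974% of all promoters, and GTCACGTG, searched on both strands, in 7 (18.4%) and in 2.25%. The 3 strings overlap, since each holds CACGTG. The 11 windows with CACGTG belong to 11 members, Atp6v0d1, Atp6v1a, Ctsa, Ctsd, Ctsl, Fnip1, Gaa, Gla, Glb1, Lamp1 and Mcoln1. A match is a description of letters, not a measured binding site.

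Up to 150 bases before the start are shown for 4 of them, from 4 roles, each ending at the start or at the last base outside an annotated exon. They show the element repeated (Lamp1), in its long palindromic form (Atp6v1a) and single (Fnip1, Glb1). Capitals mark CACGTG, and for Atp6v1a also the T and A beside it that complete TCACGTGA. Lamp1 (chr8:13159011-13159160, plus strand) holds 4 copies, which begin 61, 45, 28 and 15 bases before the start, and the window overlaps no annotated gene.
Lamp1: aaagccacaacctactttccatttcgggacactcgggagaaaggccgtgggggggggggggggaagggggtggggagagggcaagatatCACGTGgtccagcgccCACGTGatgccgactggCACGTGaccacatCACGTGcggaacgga
Atp6v1a, the catalytic A subunit of the V-ATPase (chr16:44139306-44139409, minus strand, in an intron of the annotated Atp6v1a gene, which has a start further upstream), holds its copy 131 bases before the start.
Atp6v1a: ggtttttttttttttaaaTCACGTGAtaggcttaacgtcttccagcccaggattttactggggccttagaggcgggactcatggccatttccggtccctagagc
Fnip1 (chr11:54438029-54438178, plus strand, over no annotated gene) holds its copy 75 bases before the start.
Fnip1: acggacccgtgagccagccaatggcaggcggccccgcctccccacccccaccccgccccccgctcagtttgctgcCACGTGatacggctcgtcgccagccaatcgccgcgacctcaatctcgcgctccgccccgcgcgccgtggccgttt
Glb1, which encodes beta-galactosidase (chr9:114400928-114401075, plus strand, directly before the annotated Glb1 gene), holds its copy 48 bases before the start.
Glb1: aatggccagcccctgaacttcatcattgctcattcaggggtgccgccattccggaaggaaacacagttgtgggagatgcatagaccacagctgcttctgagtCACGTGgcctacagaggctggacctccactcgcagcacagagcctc

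Across the 8 groups the members moved by small amounts. For 26 of 36 the highest group mean was less than 20% above the lowest, and only Flcn (66.7%) and Wipi1 (54.1%) differed by over 50%. The next were Gabarapl1 (47.4%), Sqstm1 (34.3%), Map1lc3a (31.8%), Fnip1 (30.1%) and Lamp2 (29.1%). ASO cells had the highest group mean for 15 members and the lowest for 4. In all, 29 members passed the test in at least 1 of 13 comparisons, as did 62.9% of all tested genes.

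**Figure D2:**
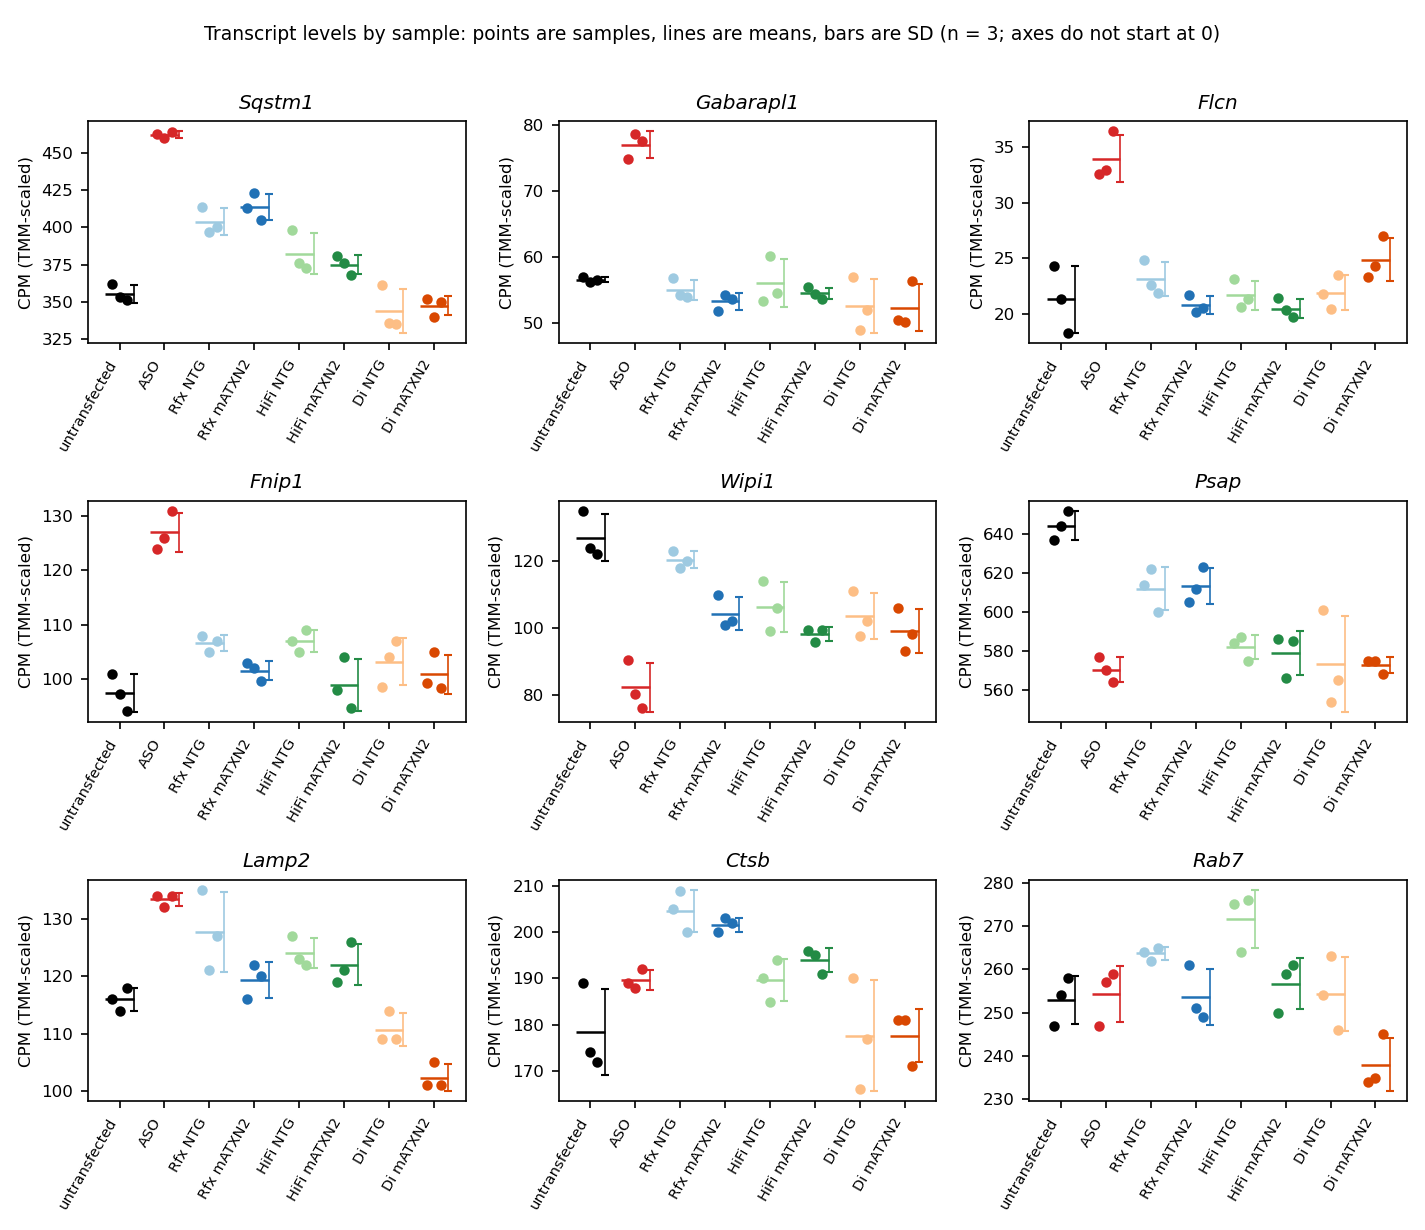
CPM of 9 members in each of the 24 libraries (points) by group, with lines for the mean and bars for the SD of 3 libraries, on axes that do not start at 0. Rfx, HiFi and Di stand for the 3 effectors. Sqstm1 reads 460 to 464 CPM in ASO libraries and at most 423 CPM elsewhere, and Wipi1 76.3 to 90.5 CPM in ASO libraries and at least 93.2 CPM elsewhere.

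The ASO comparison sets cells that received an ataxin-2-directed oligonucleotide against untransfected cells. Without a control oligonucleotide, effects of the oligonucleotide and of lower Atxn2 cannot be told apart. In ASO cells the cargo receptor p62, members of the ATG8 family and the folliculin complex were higher than in untransfected cells, and Wipi1 and Psap were lower. Of 36 members, 11 rose (30.6%) and 2 fell (5.56%) by the edgeR quasi-likelihood test, where 21.0% and 21.7% of all tested genes did. The median log2 fold change was 0.02 over the members and -0.002 over all tested genes. In all 36.1% of members were called against 42.7% of all genes, and 21 members had no overlap between the groups, against 51.8% of all genes. Among genes of at least 50 CPM 26.7% rose and 31.1% fell, and of the 28 members at that level 28.6% rose and 7.14% fell.

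Sqstm1 was at 362, 353 and 351 CPM in untransfected and at 463, 460 and 464 CPM in ASO libraries. The groups did not overlap (log2 fold change 0.38, SE 0.028, edgeR adjusted p = 1.09e-11). The ATG8 proteins are the small ubiquitin-like molecules that are attached to autophagosome membranes and bind receptors such as p62. Gabarapl1 was at 57.0, 56.2 and 56.5 CPM in untransfected and at 74.8, 78.7 and 77.6 CPM in ASO libraries (0.45, SE 0.049, edgeR adjusted p = 1.68e-08). Gabarap was at 91.5, 93.8 and 87.7 against 106, 107 and 111 CPM (0.25, SE 0.038, edgeR adjusted p = 5.34e-06). Both were higher in every ASO library than in any untransfected one. The other ATG8 genes did not pass the test: Gabarapl2 was at 122, 117 and 119 against 115, 109 and 116 CPM, Map1lc3a at 11.4, 13.2 and 12.4 against 15.0, 13.9 and 14.5, and Map1lc3b at 98.7, 98.5 and 101 against 108, 102 and 104. These 3 did not overlap between the groups either, Gabarapl2 being lower and the others higher in ASO libraries, and with the coding length correction Map1lc3a (0.32, edgeR adjusted p = 0.00730) and Map1lc3b (0.13, adjusted p = 0.00359) were called. ATG8 genes are related in sequence, and reads shared between them would have been divided by the estimation step.

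Flcn, the folliculin gene, was at 24.3, 21.3 and 18.3 CPM in untransfected and at 32.6, 32.9 and 36.4 CPM in ASO libraries, the largest rise among the members that passed (0.66, SE 0.076, edgeR adjusted p = 3.92e-08). Its partner Fnip1 was at 101, 97.2 and 94.1 against 124, 126 and 131 CPM (0.38, SE 0.037, edgeR adjusted p = 1.90e-09). Neither gene's groups overlapped. The factors they act on did not pass the test. Tfeb was at 11.2, 12.4 and 10.4 CPM in untransfected and at 11.1, 9.42 and 10.4 CPM in ASO libraries, and Tfe3 at 43.3, 37.3 and 40.2 against 42.3, 38.7 and 39.4 CPM.

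Among membrane proteins, Cd63 was at 146, 149 and 145 CPM in untransfected and at 167, 169 and 175 CPM in ASO libraries (0.21, SE 0.030, edgeR adjusted p = 1.61e-06). Lamp2, a membrane glycoprotein also needed for chaperone-mediated autophagy, was at 116, 114 and 118 against 134, 132 and 134 CPM (0.20, SE 0.034, edgeR adjusted p = 1.68e-05). Its relative Lamp1, at 649, 667 and 670 against 652, 670 and 671 CPM, overlapped between the groups. Smaller rises were called for Atp6v0d1, a subunit of the membrane sector of the V-ATPase (0.13, edgeR adjusted p = 0.00865), Neu1 (0.21, adjusted p = 0.0203), Ctsl (0.12, adjusted p = 0.0328) and Uvrag, a partner of the lipid kinase that starts autophagosomes (0.13, adjusted p = 0.0383). Each of these 4 lost its call under at least 2 of 16 alternatives, Atp6v0d1 without untransfected replicate 1 (adjusted p = 0.0609) or ASO replicate 2, Neu1 and Uvrag without untransfected replicate 3 (0.116 and 0.139), untransfected replicate 2 or ASO replicate 1, and Ctsl without any of 5 libraries, at an adjusted p of up to 0.110 over all settings. The other 9 calls were kept in all 16, among them the thinning of the ASO libraries to 16158001 counts. DESeq2 called 12 members here, Ctsb included, which was not called by the main test. Calls were thus lost outside the left-out libraries too.

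The 2 members that fell were Wipi1 and Psap. With a replicate block Atp6v1a (-0.07) and Glb1 (-0.10) were also called lower, and Ctsb (0.09) and Map1lc3a (0.22) higher. With the coding length correction Atp6v1a (-0.07) and Glb1 (-0.11) were again called lower, and Ctsb (0.11) higher. Wipi1, which binds the lipid PI3P on forming autophagosomes, was at 135, 124 and 122 CPM in untransfected and at 90.5, 80.3 and 76.3 CPM in ASO libraries (-0.63, SE 0.057, edgeR adjusted p = 5.39e-10). Its paralog Wipi2, at 74.9, 72.9 and 76.4 against 71.0, 75.4 and 72.3 CPM, overlapped between the groups. Psap was at 637, 644 and 652 against 577, 570 and 564 CPM (-0.18, SE 0.024, edgeR adjusted p = 7.76e-07). Of the 11 members with CACGTG in the promoter 3 rose and 0 fell, and of the 21 with a promoter and no CACGTG 8 rose and 2 fell.

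The set of members that differed was wider when ASO cells were compared with the mean of the 3 NTG groups, which carry an effector plasmid. How the ASO was delivered is not given, so whether transfection also differs is not known. Here 17 members (47.2%) were higher and 5 (13.9%) lower, where 19.5% and 20.9% of all tested genes were, so that 61.1% of members and 40.4% of all genes were called. Among the 4759 genes of at least 50 CPM the backgrounds were 20.6% and 36.9%, and of the 28 members at that level 12 (42.9%) were higher and 5 (17.9%) lower. The median log2 difference was 0.07 over the members and 0.005 over all tested genes. Thinning the ASO libraries left 15 higher and 6 lower, and leaving out 1 library at a time gave 17 to 24 calls. Of the 22 calls 14 were kept in all 21 alternatives, and Asah1, Atp6v1h, Ctsa, Ctsz, Gaa, Gla, Lamp1 and Uvrag were lost in at least 1.

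Flcn (0.62, SE 0.058, edgeR adjusted p = 1.16e-09), Gabarapl1 (0.50, SE 0.038, adjusted p = 1.56e-11), Sqstm1 (0.30, SE 0.022, adjusted p = 1.05e-11), Fnip1 (0.27, SE 0.028, adjusted p = 1.30e-08) and Gabarap (0.22, SE 0.030, adjusted p = 6.76e-07) were again higher in ASO cells, and Wipi1 was lower (-0.41, SE 0.047, adjusted p = 3.86e-08). Psap, lower in ASO than in untransfected cells, was not called here. Map1lc3a, the low-abundance LC3 isoform, was at 14.5 CPM in ASO cells and 11.5 CPM over the NTG groups (0.34, edgeR adjusted p = 5.67e-04). Against untransfected cells it missed the threshold (0.22, edgeR adjusted p = 0.0606) and passed it under 4 alternatives. Of the 8 hydrolases and activators 5 were higher, with differences of 0.07 for Asah1 (acid ceramidase) to 0.26 for Neu1, and Hexa, the alpha subunit of beta-hexosaminidase, was lower (-0.12, edgeR adjusted p = 0.00397). Of these 5 only Neu1 was also called higher against untransfected cells. Asah1, Grn and Gaa averaged 192, 103 and 213 CPM in ASO cells and 198, 105 and 216 CPM in untransfected cells. Gla averaged 17.1 and 16.5 CPM. The remaining calls were 0.17 for Atp6v0d1, 0.15 for Lamp2, 0.12 for Ctsl, 0.11 for Uvrag, 0.10 for Cd63 and 0.09 for Ctsz among those higher, and -0.09 for Ctsa, -0.09 for Atp6v1h and -0.05 for Lamp1 among those lower. Both ASO comparisons share the ASO libraries.

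**Figure D3:**
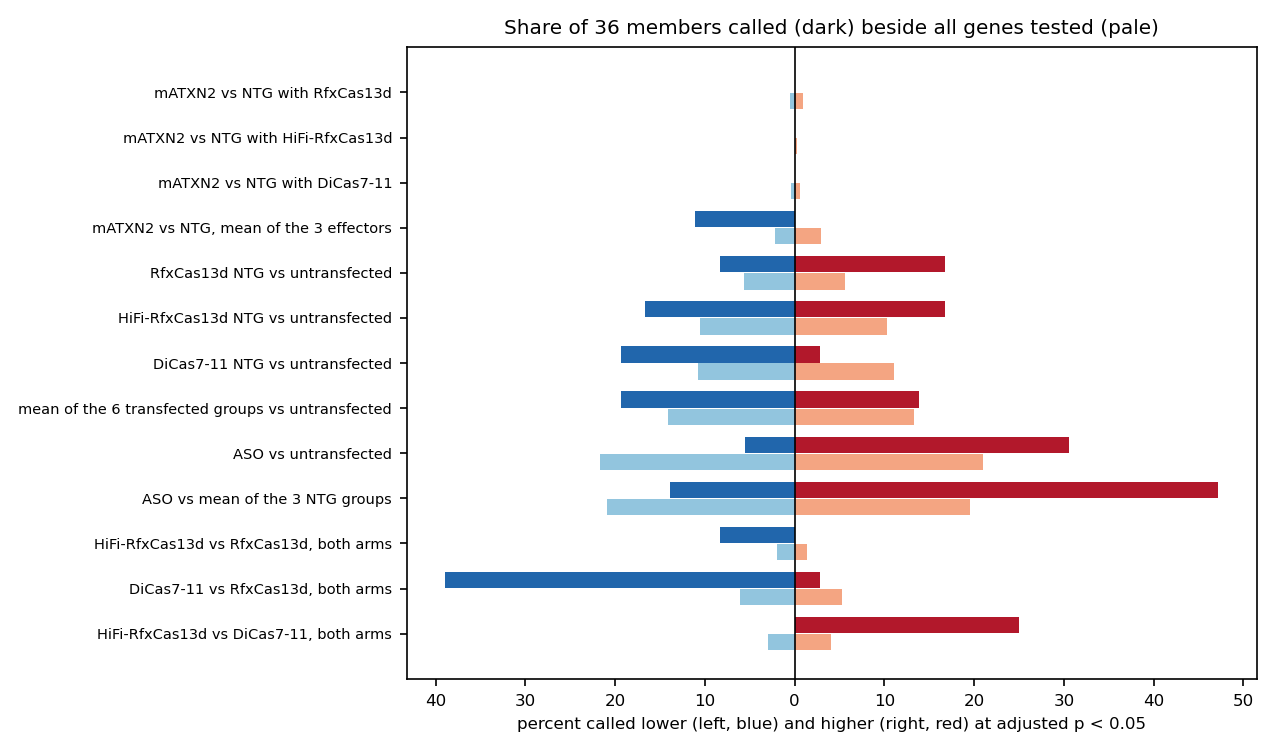
Percent of the 36 members (dark bars) and of all 13901 tested genes (pale bars) called lower (to the left) or higher (to the right) at an adjusted p under 0.05 in each comparison. In DiCas7-11 against RfxCas13d 38.9% of members and 6.06% of all genes were called lower.

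The 6 transfected groups were also set together against untransfected cells. Transfection, effector and crRNA come together in this contrast, and the groups with the mATXN2 crRNA are included. Of the 8 hydrolases and activators 5 were lower in transfected cells, with a median of -0.13 over the 8, and Gla, Hexa and Neu1 did not pass the test. Wipi1 fell most among the members, and Atp6v1h, Ctsb, Sqstm1, Cd63 and Lamp1 rose by 0.13 or less on the log2 scale. Of 36 members 7 fell (19.4%) and 5 rose (13.9%), where 14.1% and 13.3% of all tested genes did (27.4% in all). Among genes of at least 50 CPM 24.9% rose and 16.9% fell, and of the 28 members at that level 17.9% rose and 25.0% fell. The median log2 fold change was -0.02 over the members and -0.005 over all tested genes.

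Over the 18 transfected libraries Psap was at 554 (lowest), 586 (median) and 623 CPM (highest), and in untransfected ones at 637, 644 and 652 (log2 fold change -0.13, SE 0.018, edgeR adjusted p = 3.61e-06). Asah1 was at 163, 181 and 196 CPM in the transfected libraries and at 198 CPM in each untransfected one (-0.14, SE 0.023, edgeR adjusted p = 2.39e-05). Glb1 was at 55.5, 61.5 and 66.7 CPM against 72.3, 67.2 and 69.7 (-0.19, SE 0.035, edgeR adjusted p = 1.54e-04). No transfected library reached the lowest untransfected one for these 3 of the 36 members, and the same held for 4.74% of all tested genes. Grn, which encodes progranulin, a secreted and lysosomal protein that binds prosaposin, was at 88.2, 92.5 and 103 CPM against 108, 104 and 102 and overlapped in its highest library (-0.17, SE 0.028, edgeR adjusted p = 4.45e-05). Gaa, the acid alpha-glucosidase that degrades glycogen, fell least (-0.09, edgeR adjusted p = 0.0294) and its groups overlapped.

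Of the other members Wipi1 fell, from a mean of 127 to 105 CPM (-0.27, SE 0.044, edgeR adjusted p = 2.10e-05), as did Atp6v1a (-0.10, edgeR adjusted p = 0.00103). The second V-ATPase subunit called, Atp6v1h, rose (0.13, edgeR adjusted p = 0.00303). The remaining rises were small, at 0.10 for Ctsb (cathepsin B), 0.08 for Sqstm1, 0.08 for Cd63 and 0.05 for Lamp1, and the samples of each overlapped. Of the 12 calls 8 were kept under all 29 alternatives. Leaving out 1 library at a time gave 10 to 13 calls, with 10 without untransfected replicate 2. Gaa and Lamp1 were not called without untransfected replicate 1 (edgeR adjusted p = 0.302 and 0.175), nor Ctsb without untransfected replicate 3 (0.137) or 2, nor Cd63 without untransfected replicate 3 (0.0651) or 1. Fibroblast markers were also lower in transfected than in untransfected libraries, and their part in these falls was not tested.

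Each NTG group was next compared with untransfected cells alone. With RfxCas13d NTG 6 members rose (16.7%) and 3 fell (8.33%), where 5.60% and 5.66% of all tested genes did, and among genes of at least 50 CPM 10.9% and 8.11% did, beside 21.4% and 10.7% of the 28 members at that level. The rises were Ctsb (0.20, SE 0.037, edgeR adjusted p = 5.56e-04), Sqstm1 (0.18, SE 0.029, adjusted p = 6.95e-05), Cd63 (0.16, SE 0.031, adjusted p = 8.84e-04), Lamp2 (0.14), Fnip1 (0.12) and Lamp1 (0.08), and the falls were Glb1 (-0.14), Asah1 (-0.09) and Psap (-0.07). Sqstm1 was at 414, 397 and 400 CPM, Ctsb at 205, 209 and 200 CPM and Cd63 at 164, 169 and 160 CPM in these NTG libraries, each above all untransfected ones. Over the whole set 13 members had no overlap between these groups, against 28.5% of all tested genes. Sqstm1, Ctsb and Cd63 were the calls kept in all 15 alternatives. The count of 9 was 4 without RfxCas13d NTG replicate 2 and 5 without any of RfxCas13d NTG replicates 1 and 3 and untransfected replicates 1 and 3.

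With HiFi-RfxCas13d NTG 6 members rose and 6 fell (16.7% each), where 10.3% and 10.6% of all tested genes did. Among genes of at least 50 CPM 20.2% rose and 13.3% fell, and 21.4% of the 28 members did each. The falls were led by Wipi1 (-0.26, SE 0.057, edgeR adjusted p = 0.00137), Grn (-0.21, SE 0.037, adjusted p = 1.60e-04) and Glb1 (-0.21, SE 0.046, adjusted p = 0.00158), followed by Psap (-0.15), Asah1 (-0.12) and Gaa (-0.11). The rises were Atp6v1h (0.15), Cd63 (0.14), Fnip1 (0.13), Sqstm1 (0.10), Rab7 (0.10) and Lamp1 (0.08). With DiCas7-11 NTG 7 members fell (19.4%) and 1 rose (2.78%), where 10.8% and 11.1% did. Among genes of at least 50 CPM 13.8% fell and 22.5% rose, beside 25.0% and 3.57% of the 28 members. The falls were Wipi1 (-0.30, SE 0.058, edgeR adjusted p = 3.93e-04), Grn (-0.21, SE 0.037, adjusted p = 1.33e-04), Psap (-0.17, SE 0.024, adjusted p = 9.57e-06), Glb1 (-0.17), Asah1 (-0.14), Atp6v1a (-0.14) and Gaa (-0.12), and Atp6v1h rose (0.19, SE 0.041, adjusted p = 8.62e-04). Of the calls 7 of 12 with HiFi-RfxCas13d NTG and 6 of 8 with DiCas7-11 NTG were kept in all 15 alternatives. The 3 DiCas7-11 NTG libraries differed more from one another than those of any other group, with a chi-square per gene of 3.22 to 5.33 between replicates against 1.68 to 2.53, and the count of 8 was 12 without its replicate 1 and 6 without its replicate 3 or without untransfected replicate 1. Psap, Asah1 and Glb1 were called lower with each of the 3 effectors, in comparisons that share the untransfected libraries. With RfxCas13d NTG each of the 3 lost the call under 7 to 9 of 15 alternatives, and Glb1 lost it with DiCas7-11 NTG under 3.

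The effectors were also compared directly, both crRNA arms together, so that transfection is common to the 6 libraries on each side. The membrane protein genes Lamp1, Lamp2 and Cd63, the cathepsin genes Ctsb and Ctsd, Sqstm1 and the ATG8 genes Map1lc3b and Gabarap were lower with DiCas7-11 than with RfxCas13d, and the membrane protein genes Scarb2 and Mcoln1 did not pass the test. Of 36 members 14 (38.9%) were lower and 1 (2.78%) higher, where 6.06% and 5.29% of all tested genes were (11.4% in all). Among genes of at least 50 CPM 10.0% were lower, and 14 of the 28 members at that level were. The median log2 difference was -0.06 over the members and -0.002 over all tested genes.

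Sqstm1 differed most, at 335 (lowest), 345 (median) and 361 CPM (highest) with DiCas7-11 and at 397, 409 and 423 CPM with RfxCas13d (log2 difference -0.24, SE 0.020, edgeR adjusted p = 2.17e-09). The 6 libraries of DiCas7-11 and of RfxCas13d did not overlap. Those of HiFi-RfxCas13d, at 368, 376 and 398 CPM, lay above all DiCas7-11 libraries and overlapped RfxCas13d at its lowest library (397 CPM). Lamp2 was at 101, 107 and 114 CPM with DiCas7-11 and at 116, 122 and 135 CPM with RfxCas13d (-0.21, SE 0.025, edgeR adjusted p = 9.51e-07). Ctsb was at 166, 179 and 190 against 200, 202 and 209 CPM (-0.20, SE 0.026, edgeR adjusted p = 7.54e-06). Both again did not overlap. Untransfected cells had 172 to 189 CPM of Ctsb and 351 to 362 CPM of Sqstm1, ranges that the DiCas7-11 libraries overlapped and the RfxCas13d libraries exceeded.

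Lamp1 was at 642, 654 and 681 CPM with DiCas7-11 and at 688, 704 and 715 CPM with RfxCas13d (-0.10, SE 0.015, edgeR adjusted p = 1.92e-05). Cd63 was at 139, 148 and 153 against 154, 160 and 169 CPM (-0.12, SE 0.022, edgeR adjusted p = 5.99e-04). Ctsd was at 285, 300 and 319 against 320, 326 and 341 CPM (-0.12, SE 0.028, edgeR adjusted p = 0.00374). These membrane and protease genes thus lay lower in every DiCas7-11 library, Ctsd by the narrowest margin. Map1lc3b, the LC3 isoform most used to follow autophagosomes, was at 88.3, 96.5 and 99.5 against 100, 104 and 106 CPM (-0.12, SE 0.027, edgeR adjusted p = 0.00383), and Gabarap at 86.1, 89.5 and 90.6 against 93.0, 95.4 and 97.1 CPM (-0.10, edgeR adjusted p = 0.0259). The 8 members whose libraries did not overlap compare with 3.67% of all tested genes.

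The other calls in this comparison had libraries that overlapped. They were Wipi1 (-0.15), Atp6v1a (-0.12), Grn (-0.11), Psap (-0.10), Asah1 (-0.08) and Rab7 (-0.07), and Atp6v1h was higher (0.09). The calls of Asah1, Atp6v1h, Gabarap, Rab7 and Wipi1 were lost under 2 to 5 of 20 alternatives, at adjusted p up to 0.0825 by edgeR, each when 1 of several libraries was left out, and the other 10 were kept in all, with 11 to 15 members called when 1 library was left out. Of the 11 members with CACGTG 3 were lower, and of the 21 with a promoter and no CACGTG 9 were.

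HiFi-RfxCas13d was set against each of the other effectors in the same way. Compared with DiCas7-11, 9 members (25.0%) were higher and 0 lower, where 4.05% of all tested genes were higher (7.05% were called in all). Among genes of at least 50 CPM 8.30% were higher, beside 32.1% of the 28 members. They were Lamp2 (0.21, SE 0.025, edgeR adjusted p = 1.86e-06), Sqstm1 (0.13, SE 0.020, adjusted p = 7.84e-05), Atp6v1a (0.13, SE 0.021, adjusted p = 2.77e-04), Map1lc3b (0.12), Cd63 (0.11), Ctsb (0.11), Rab7 (0.10), Lamp1 (0.09) and Asah1 (0.08). Lamp2 read 119, 122 and 127 CPM with HiFi-RfxCas13d, above all DiCas7-11 libraries. Compared with RfxCas13d, 3 members (8.33%) were lower and 0 higher, where 1.96% of all tested genes were lower (3.33% were called in all), and 2.54% of genes of at least 50 CPM. They were Sqstm1 (-0.11, SE 0.020, edgeR adjusted p = 0.00149), Grn (-0.10, SE 0.026, adjusted p = 0.0268) and Psap (-0.08, SE 0.017, adjusted p = 0.00887). Psap was at 566, 584 and 587 CPM with HiFi-RfxCas13d and at 600, 613 and 623 CPM with RfxCas13d, without overlap. Asah1 against DiCas7-11 and Grn against RfxCas13d lost the call in at least 1 of 20 alternatives, and the other calls were kept in all. How many cells took up each plasmid and how much effector they made was not analysed here, and these cannot be told apart from the effector itself.

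**Figure D4:**
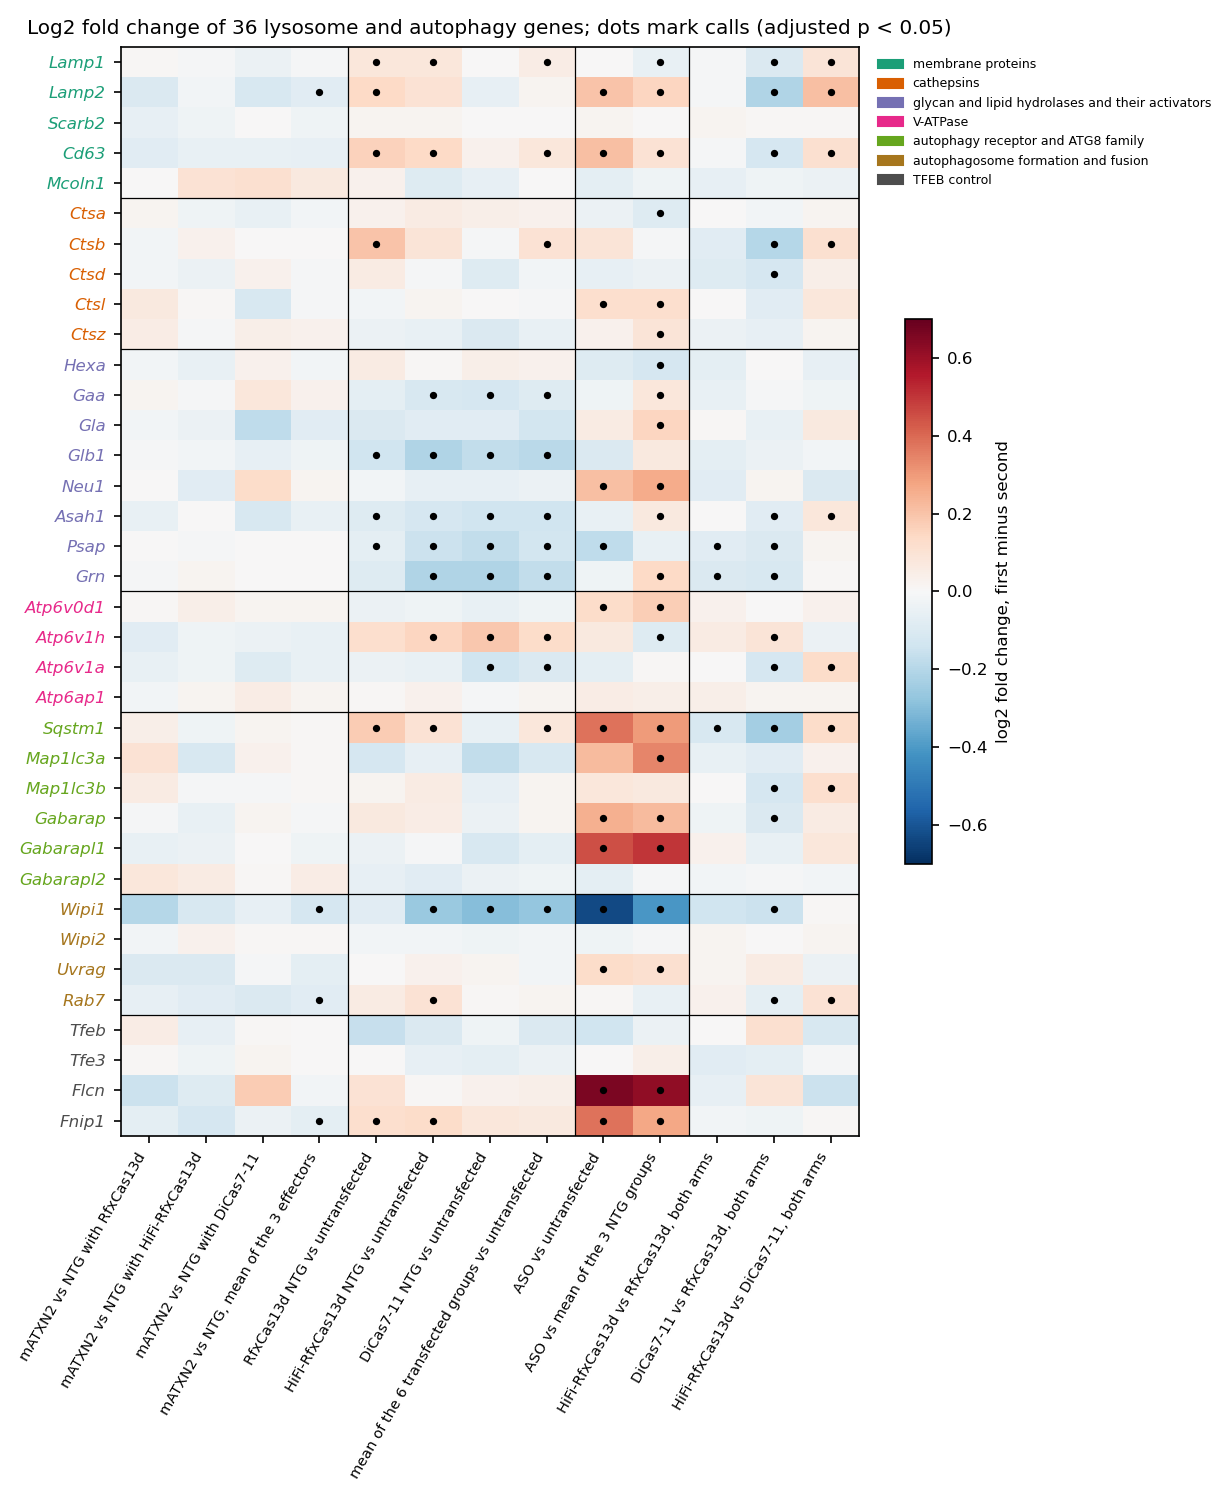
Log2 fold change of each member (rows, by role) in the comparisons (columns), as a colour scale, with dots at an adjusted p under 0.05. The ASO columns hold the largest changes, 0.66 for Flcn and -0.63 for Wipi1 against untransfected cells, and the columns of the mATXN2 crRNA within 1 effector hold no call.

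The mATXN2 and NTG crRNAs were compared within each effector, the contrast the guides were designed for. No member was called with RfxCas13d, HiFi-RfxCas13d or DiCas7-11 by edgeR, where 1.39%, 0.295% and 0.942% of all tested genes were. At an unadjusted p under 0.05 there were 6, 3 and 8 of 36 members and 13.8%, 7.45% and 14.0% of all tested genes. DESeq2 called 1, 0 and 2 members, of 274, 66 and 286 genes, and limma-trend 0 members in each. The member nearest the threshold with RfxCas13d was Wipi1, at 123, 118 and 120 CPM with NTG and at 110, 101 and 102 CPM with mATXN2 (log2 fold change -0.20, edgeR adjusted p = 0.0749). Its libraries did not overlap, which held for 20.2% of all tested genes in this comparison, and it passed under 5 alternatives.

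Averaged over the 3 effectors, 4 members were lower with mATXN2 (11.1%) and 0 higher, where 2.24% and 2.95% of all tested genes were (5.19% in all), and 5.65% of genes of at least 50 CPM were lower. Rab7 averaged 249 CPM with mATXN2 and 263 CPM with NTG (-0.08, edgeR adjusted p = 0.00523). Its change was -0.06, -0.08 and -0.10 with RfxCas13d, HiFi-RfxCas13d and DiCas7-11 in turn. Lamp2 averaged 115 and 121 CPM (-0.08, edgeR adjusted p = 0.0213), Wipi1 101 and 110 CPM (-0.12, edgeR adjusted p = 0.0259) and Fnip1 100 and 106 CPM (-0.07, edgeR adjusted p = 0.0467). All 4 changes were under 0.15 on the log2 scale, and the libraries of both arms overlapped.

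Only Rab7 was called under all 26 alternatives. The count of 4 was 1 without HiFi-RfxCas13d NTG replicate 1 and 2 without RfxCas13d NTG replicate 1 or without either of RfxCas13d mATXN2 replicates 2 and 3. With DiCas7-11 alone 2 members were called without its NTG replicate 1, Atp6v1a (-0.11) and Gaa (0.15), where the calls over all genes went from 131 to 605. No difference between effectors in the response to mATXN2 was called for any of 13901 genes by edgeR, members included (0, 2 and 2 members at an unadjusted p under 0.05 over the 3 pairs of effectors, and 0 members by DESeq2 and by limma-trend). With 3 libraries in each group this does not show that the responses are equal. At that unadjusted p stood 6.15%, 7.80% and 7.40% of all tested genes for HiFi-RfxCas13d minus RfxCas13d, DiCas7-11 minus RfxCas13d and HiFi-RfxCas13d minus DiCas7-11. In ASO against untransfected cells, a comparison that shares no library with these, Wipi1 was also lower (-0.63), Lamp2 and Fnip1 were higher (0.20 and 0.38), and Rab7, at 247, 257 and 259 CPM in ASO and 247, 254 and 258 CPM in untransfected libraries, overlapped.

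The members that passed in none of the 13 comparisons were Scarb2, which carries glucocerebrosidase to lysosomes, the calcium channel gene Mcoln1, the ATG8 gene Gabarapl2, Wipi2, the V-ATPase accessory gene Atp6ap1, and Tfeb and Tfe3. Their highest group mean was 2.74% (Wipi2) to 10.8% (Tfeb) above their lowest. Tfeb, at 9.17 to 12.4 CPM over all libraries, was the least abundant member, with a mean of 182 counts, and a small change in it would be harder to detect than in Lamp1 with 11602.

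Further genes of the same pathways were listed by role. In ASO against untransfected cells the 15 other V-ATPase subunits had 6 higher and 2 lower, and the 31 other hydrolases and activators 5 higher and 12 lower. The latter were led by Gm2a, the activator of ganglioside breakdown (-0.68), and Arsg, a lysosomal sulfatase (-0.48), with Ctso and Idua at 0.41 among those higher. The 29 core autophagy genes had 11 higher and 5 lower, with Atg2a (0.64), a lipid transfer protein of the growing autophagosome, and Epg5 (0.42), a tether of autophagosomes to lysosomes, against Atg7 (-0.63), the enzyme that activates ATG8 proteins, and Ulk1 (-0.58), the kinase that starts autophagy. The 20 genes of mTORC1 and Rag control had 9 higher and 4 lower. Among them Rragc, which encodes the Rag GTPase acted on by folliculin, was higher (0.44), as was Mitf (0.36), a relative of TFEB, and Rraga was lower (-0.43).

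The largest fall in these lists was Bnip3, a mitophagy receptor known to respond to low oxygen, at 26.7 CPM in ASO and 81.5 CPM in untransfected cells (-1.61), and its relative Bnip3l fell too (-0.59). Of the 10 other autophagy receptors 3 rose, led by Wdfy3 (0.61), a large scaffold for the removal of aggregates, and 2 fell. The 8 genes of mannose-6-phosphate sorting had 1 higher and 1 lower, the latter being Igf2r, a mannose-6-phosphate receptor (-0.68). The lists of 20 other membrane proteins (3 higher, 4 lower), 22 tethering and fusion genes (7 and 3) and 16 genes of the endolysosomal damage response (8 and 3) moved in both directions. The background of this comparison was 21.0% of all tested genes higher and 21.7% lower.

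In transfected against untransfected cells 13 of the 31 other hydrolases and activators fell and 0 rose, where 14.1% and 13.3% of all tested genes did. Gm2a was among them (-0.39), the same direction as the 5 hydrolases and activators among the members. The 20 other membrane proteins had 0 higher and 4 lower, led by the potassium channel gene Tmem175 (-0.25), and sorting genes 0 and 2, led by Igf2r (-0.54). The 15 other V-ATPase subunits had 1 higher and 1 lower, core autophagy genes 1 and 2, other receptors 1 and 4, mTORC1 and Rag genes 2 and 3, and tethering and fusion genes 3 and 2.

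The damage response list, with 3 higher and 4 lower, held the largest rise in the pathway lists. Lgals9, the galectin-9 gene, whose product binds glycans exposed on damaged lysosomes and which is also known as an interferon-responsive gene, averaged 41.1 CPM in transfected and 16.5 CPM in untransfected cells (1.27, SE 0.080, edgeR adjusted p = 1.60e-12). With RfxCas13d NTG it was at 58.3 CPM (1.82), with HiFi-RfxCas13d NTG at 33.1 CPM (1.00) and with DiCas7-11 NTG at 35.6 CPM (1.11). ASO cells were at 20.1 CPM. Both arms together it was lower with DiCas7-11 than with RfxCas13d (-0.66, SE 0.058, edgeR adjusted p = 4.64e-09) and lower with HiFi-RfxCas13d than with RfxCas13d (-0.84, SE 0.058, edgeR adjusted p = 2.20e-10), without overlap.

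Between DiCas7-11 and RfxCas13d the pathway lists gave further genes lower with DiCas7-11. The 15 other V-ATPase subunits had 3 lower and 0 higher, led by Tcirg1 (-0.30), a membrane subunit, and the 31 other hydrolases and activators 4 and 0, among them Tpp1 (-0.15). Receptors had 3 lower and 0 higher, led by Bnip3 (-0.47), the damage response list 3 and 0, and other membrane proteins 2 and 0. Core autophagy, sorting and mTORC1 and Rag genes had 1 in each direction, and tethering and fusion genes had 1 higher and 0 lower. The background was 6.06% of all tested genes lower and 5.29% higher.

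In the mATXN2 comparison over the 3 effectors 4 genes of all the pathway lists together rose and 3 fell. The lists hold 8 to 31 genes each. Of all tested genes 2.95% rose and 2.24% fell. No joint share of the lists was calculated, so these counts are not read as a result about the lists. Wdfy3 averaged 108 CPM with mATXN2 and 86.0 CPM with NTG over the 3 effectors (0.32, SE 0.038, edgeR adjusted p = 1.63e-06), with every mATXN2 library above every NTG library, which held for 0.288% of all tested genes. It rose within RfxCas13d (0.30, edgeR adjusted p = 0.0173), HiFi-RfxCas13d (0.36, adjusted p = 0.00547) and DiCas7-11 (0.30, adjusted p = 0.0166). Mtor, the catalytic kinase of mTORC1, averaged 110 and 95.2 CPM (0.21, SE 0.025, edgeR adjusted p = 2.96e-06), and was called with RfxCas13d (0.27, adjusted p = 0.00116) and DiCas7-11 (0.19, adjusted p = 0.0298) and not with HiFi-RfxCas13d (0.17, adjusted p = 0.117). Both are long genes, with coding lengths of 10578 bases for Wdfy3 and 7647 for Mtor against a median of 1416 over tested genes, and both kept their call over the 3 effectors under all 26 alternatives, a coding length correction included.

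Within 1 effector the calls of Wdfy3 were lost under 2 to 6 of 15 alternatives, up to an adjusted p of 0.190 without DiCas7-11 NTG replicate 2 (edgeR). Those with RfxCas13d and DiCas7-11 were lost with the coding length correction (edgeR adjusted p = 0.0598 and 0.0515), as was that of Mtor with DiCas7-11 (adjusted p = 0.149). The other calls over the 3 effectors in these lists were Epg5 (0.16), lost with the coding length correction (edgeR adjusted p = 0.319), Sidt2 (0.11), Atp6v1d (-0.10), Tax1bp1 (-0.08) and Tmem106b (-0.08).

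**Figure D5:**
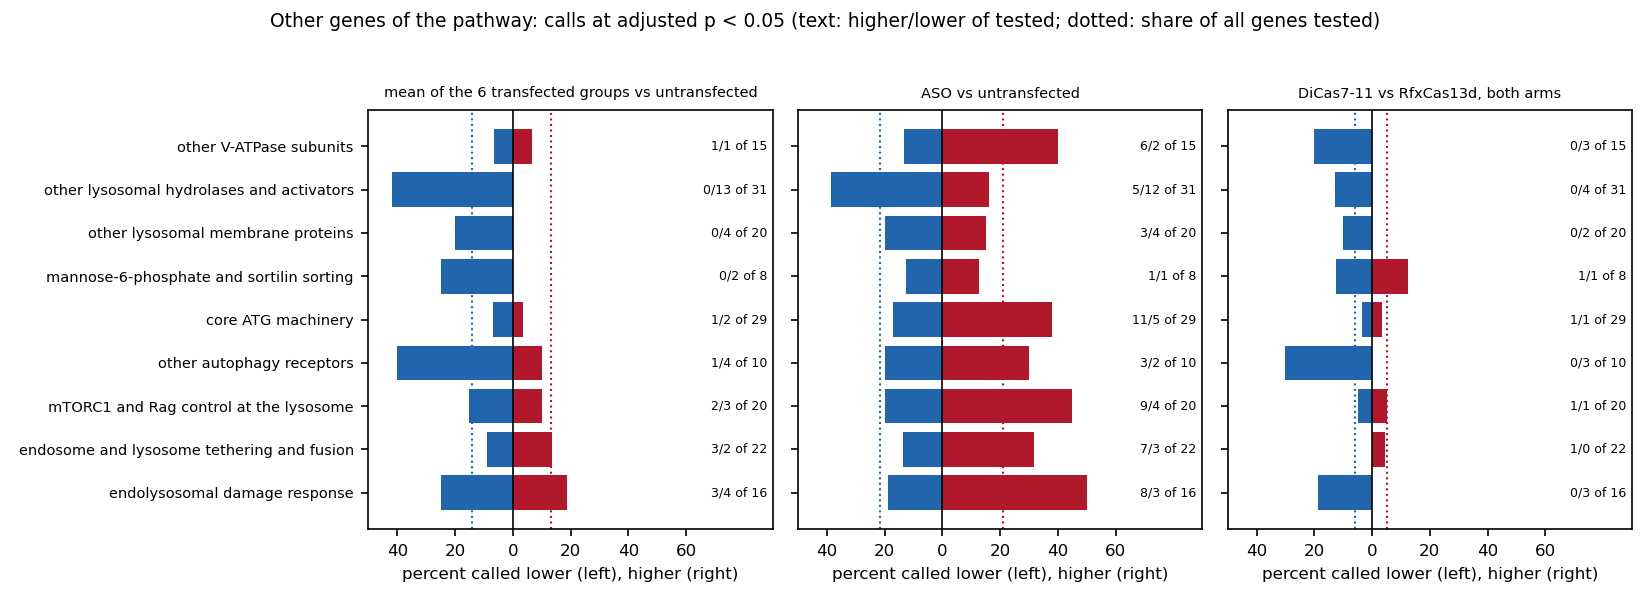
Percent of genes called lower (to the left) and higher (to the right) in each of the further pathway lists for the transfection, ASO and effector comparisons, with the counts as text and the shares of all tested genes as dotted lines. Other hydrolases show 12 lower and 5 higher of 31 in ASO cells and 13 lower and 0 higher in transfected cells.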

How the data were processed

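Neuro2A libraries (stranded mRNA, single end) were quantified by the authors with Salmon 1.5.2 against a GRCm39 transcriptome and imported with tximport in R 4.2.2, per the labels and the study's methods. The deposited values are estimated counts per gene, scaled for transcript length, and 62.9% of genes held fractional values. They were rounded and tested with edgeR 4.0.16 (quasi-likelihood, TMM, R 4.3.3) in 1 model of 8 groups and 24 libraries, on the 13901 genes that reached 0.5 CPM in 3 or more libraries. P-values were adjusted by Benjamini-Hochberg within each of 13 comparisons, with a threshold of 0.05. Every adjusted p in the text is by Benjamini-Hochberg. Where an alternative is named, the value comes from that alternative. Differences between effectors in a response were further contrasts of the same model, each adjusted within itself. The replicates are independent biological ones per the series' design. CPM used TMM library sizes. Lengths came from GENCODE M21, with a coding length for 87.3% of tested genes. Totals of 12665725 to 22504999 counts gave members means of 182 to 11602 counts.

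Libraries were grouped by their labels. The members and pathway lists were chosen with earlier results of these data known. Values in every library were given for members called in at least 1 comparison, in order of p, up to about 20, and per pathway list up to 2 rises and 2 falls were named among genes with a mean of at least 50 counts. The promoter search was chosen with these results known. The fits were tested on simulated data. Alternatives were RLE scaling, every nonzero gene, the authors' kept genes (12874), DESeq2 1.42.0, limma-trend 3.58.1, adjustment over 10 comparisons, only the samples compared, a replicate block, a coding length correction and leaving out each library. Thinning of the ASO libraries was added after seeing the data. Promoter sequences are RefSeq's for GRCm38.p6, used for letters only and not joined to the counts by position. A gene of the pathway lists is not reported here.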

Additional observations from a re-analysis of the deposited data

Results flagged for a closer look

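For 8 members the change from untransfected cells to NTG differed between DiCas7-11 and RfxCas13d by a test of the difference itself (edgeR, Benjamini-Hochberg), which is the same as comparing the NTG groups, since the untransfected libraries cancel. The DiCas7-11 change minus the RfxCas13d change was -0.23 for Sqstm1 (SE 0.029, edgeR adjusted p = 1.15e-05), -0.22 for Wipi1 (SE 0.058, adjusted p = 0.0309), -0.21 for Ctsb (SE 0.037, adjusted p = 0.00108) and -0.20 for Lamp2 (SE 0.035, adjusted p = 7.39e-04). It was -0.15 for Ctsd (SE 0.040, edgeR adjusted p = 0.0346), -0.13 for Cd63 (SE 0.031, adjusted p = 0.0178), -0.09 for Psap (SE 0.024, adjusted p = 0.0272) and -0.08 for Lamp1 (SE 0.021, adjusted p = 0.0404). These 8 members (22.2%) compare with 2.29% of all tested genes lower in this contrast. Ctsb, Lamp2 and Sqstm1 were called in all 14 alternatives. The other 5 each lost the call under 3 to 7 of them, with adjusted p of up to 0.328 for Lamp1 and 0.282 for Psap with only the samples compared and up to 0.177 for Ctsd without DiCas7-11 NTG replicate 3.

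Between HiFi-RfxCas13d and DiCas7-11 the same test found 2 members, Lamp2 (0.16, SE 0.035, edgeR adjusted p = 0.0201) and Sqstm1 (0.15, SE 0.029, adjusted p = 0.00437), where 0.504% of all tested genes were higher with HiFi-RfxCas13d, and neither was called in all 14 alternatives. Between HiFi-RfxCas13d and RfxCas13d 0 members were called by edgeR, DESeq2 or limma-trend, with 6 of 36 members and 9.94% of all tested genes at an unadjusted p under 0.05.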

How the results depend on the processing

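Of the single-gene results, 5624 values kept their direction and their side of the threshold, 568 lost the call and 0 reversed. The count of members called with RfxCas13d (mATXN2 against NTG) rose from 0 to 1 (Wipi1) with every nonzero gene, DESeq2, adjustment over 10 comparisons and only the samples compared, where calls over all genes rose from 193 to 434, 274, 665 and 389. With HiFi-RfxCas13d it rose from 0 to 1 (Fnip1) with adjustment over 10 comparisons (41 to 275 over all genes), and with DiCas7-11 from 0 to 2 (Asah1, Rab7) with DESeq2 and to 4 with adjustment over 10 comparisons (131 to 286 and 643 over all genes). The 3 members lower with HiFi-RfxCas13d than with RfxCas13d became 6 with every nonzero gene, 5 with DESeq2 and 6 with only the samples compared. The 10 differences between effectors in NTG against untransfected became 5 with only the samples compared. The cause was not tested. Leaving out 1 library at a time gave 1 to 6 calls for mATXN2 over the 3 effectors, 0 to 2 with DiCas7-11 and 4 to 7 for RfxCas13d NTG against untransfected.

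Groups share replicate numbers. Over 84 pairs of libraries with the same number the correlation of deviations from the group means was -0.08 to 0.08 (median 0.01), with 0 pairs over 0.1. This value is over all tested genes and cannot exclude a replicate effect on single members. Ctsd, for example, was highest in replicate 1 in each of the 8 groups. A replicate block moved the count for mATXN2 from 4 to 7 over the 3 effectors, from 0 to 1 with RfxCas13d (Wipi1) and with DiCas7-11 (Asah1), and from 3 to 6 between HiFi-RfxCas13d and RfxCas13d. The calls over all genes went from 722 to 906, 193 to 292, 131 to 251 and 463 to 620 in these 4 comparisons.

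Limits are the 3 libraries in each group, the unequal depth of members (means of 182 to 11602 counts), which makes small changes of genes such as Tfeb harder to detect, and the deeper ASO libraries.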
